A study of Mus musculus with 6 samples.

Results

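The genes described are those of the cytosolic ribosomal proteins, chosen by name. They are all probe sets annotated to exactly 1 gene whose symbol starts with Rpl or Rps followed by a digit, leaving out the Rps6k kinases, or equals Rplp0, Rplp1, Rplp2 or Rpsa. The rule found 49 of the 12488 probe sets on the array. They named 35 of the 8251 genes that the array's singly annotated probe sets name, 17 of the large (60S) and 18 of the small (40S) subunit. RNA came from thoracic mammary glands of virgin F1 CF-1/FVB mice aged 16 weeks. Wild type mice were compared with transgenic mice of the same cross with excess luteinizing hormone (LH), a hormone of the pituitary under which gonads make sex steroids. The labels used here name neither the promoter of the transgene nor the cells that express it. Each group had 3 Affymetrix arrays, and each array carried RNA pooled from 3 mice, so that a pool and not a mouse is the replicate.

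Ribosomal proteins are the protein part of the ribosome. The 40S subunit reads the messenger RNA and the 60S subunit joins amino acids. Most of the proteins are needed in equal numbers per ribosome, and ribosomal protein mRNAs are among the most abundant in most cells. In mammals these mRNAs begin with a C followed by a run of pyrimidines (the TOP tract), through which their translation responds to nutrients and growth signals by way of the kinase mTOR and the RNA-binding protein Larp1. The array measures RNA amount and not translation. The mammary epithelium makes large amounts of milk protein after alveolar differentiation, a state that draws on many ribosomes.

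RefSeq promoter windows (GRCm38.p6) were found for 28 of the 35 genes, with 37 annotated starts. In 7 windows, shown because the signals of their genes rose, fell or (Rps10) were not called below, the last 30 bases before the annotated start are followed by the first 30 of the transcript. Capitals mark the longest run of C and T that begins with C.
Rps18, chr17:33955636-33955695, minus strand: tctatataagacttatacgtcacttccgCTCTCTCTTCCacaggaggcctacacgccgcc
Rpl7a, chr2:26910777-26910836, plus strand: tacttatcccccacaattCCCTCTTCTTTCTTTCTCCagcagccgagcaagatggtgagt
Rps24, chr14:24490648-24490707, plus strand: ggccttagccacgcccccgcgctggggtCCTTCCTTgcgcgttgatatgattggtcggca
Rpl10a, chr17:28328535-28328594, plus strand: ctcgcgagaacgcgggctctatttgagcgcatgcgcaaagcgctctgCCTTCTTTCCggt
Rps28, chr17:33824533-33824592, minus strand: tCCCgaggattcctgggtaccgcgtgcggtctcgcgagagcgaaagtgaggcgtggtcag
Rps10, chr17:27635215-27635274, minus strand: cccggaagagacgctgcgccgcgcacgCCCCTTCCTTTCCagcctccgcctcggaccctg
Rpl22, chr4:152325696-152325755, plus strand: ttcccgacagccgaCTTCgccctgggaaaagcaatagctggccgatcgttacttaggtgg

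A run of at least 8 pyrimidines beginning with C, searched on the transcribed strand from 30 bases before to 50 after the start, was found at 21 of the 37 starts (56.8%). It was found at 23.1% of all 32851 starts in the table. The letters CTTTCC in the same stretch were found at 12 member starts (32.4%) against 3.73% of all. In the whole window of 300 bases, searched on both strands, the letters CTTCCG were present at 54.1% of member starts and 16.9% of all, CCATCTTG at 10.8% and 2.12%, and TATAAA at 10.8% and 13.6%. CTTCCG, the core of an ETS factor site, can share letters with the pyrimidine run. Annotated starts are often not the true first base, and a match is a description of letters only. Runs of 19 and 11 bases stood at Rpl7a and Rps18, whose signal rose on the deposited scale as described below. Runs of 8, 10 and 3 stood at the printed starts of Rps24, Rpl10a and Rps28, for which a probe set rose on that scale too. The identity of the Rps24 probe set is uncertain, as described below. Other annotated starts had a run of 10 at Rps24 and of 7 at Rpl10a. Rplp0, Rps3 and Rps7 also rose, and their starts, not printed, had runs of 5, 5 and 8. A run of 13 stood at Rps10, which was not called. Rpl22 had a run of 4 at the printed start and of 5 at its other annotated start.

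The values are MAS5 signals on a linear scale, 1 number for each probe set on each array. Every array had been scaled to nearly the same trimmed mean. Array medians lay between 540.6 and 583.4. The 3'/5' signal ratio of the Actb control probe sets, a measure of RNA integrity and cRNA length, was 2.02 to 2.23 in wild type and 1.27, 2.09 and 1.44 on LH transgenic arrays 1 to 3. That of Gapdh was 1.15 to 1.37 and 1.05 to 1.41. The bacterial hybridisation controls, which are added in fixed amounts, were brighter on every LH transgenic array (mean log2 12.35 to 12.80) than on every wild type array (11.71 to 12.11). Scaling the arrays to these controls changed the results, as described below. Why the controls were brighter was not tested. Of markers of the tissue, 10 of 10 milk genes and 6 of 6 luminal epithelial genes had signals high enough to test. Fat cell (8), skeletal muscle (10), endothelial (8), macrophage (9) and B or T cell (4) markers were tested as well, so the glands hold several cell types. In such whole tissue, more cells of a type and more RNA per cell cannot be told apart.

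Each difference subtracts the wild type mean from the LH transgenic mean on the scale log2(signal + 80), and means are given ± SD with n = 3 arrays per group. A call is an adjusted p under 0.05 from limma over all 7453 probe sets whose mean signal was at least 336. Of the 49 ribosomal protein probe sets, 28 (25 genes) passed that filter. On the deposited scale 8 probe sets of 8 genes rose in the LH transgenic glands, 2 fell, and 18 were not called, with 19 of the 28 at an unadjusted p under 0.05. Over all tested probe sets 10.5% were called higher and 10.8% lower. The median difference of the 28 was 0.32, against 0.02 for all tested probe sets. All 8 increases turned below 0 when arrays were scaled to their bacterial controls, and that of Rplp0 also after quantile normalization (-0.12). None of the 8 was called under either scaling.

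**Figure D1:**
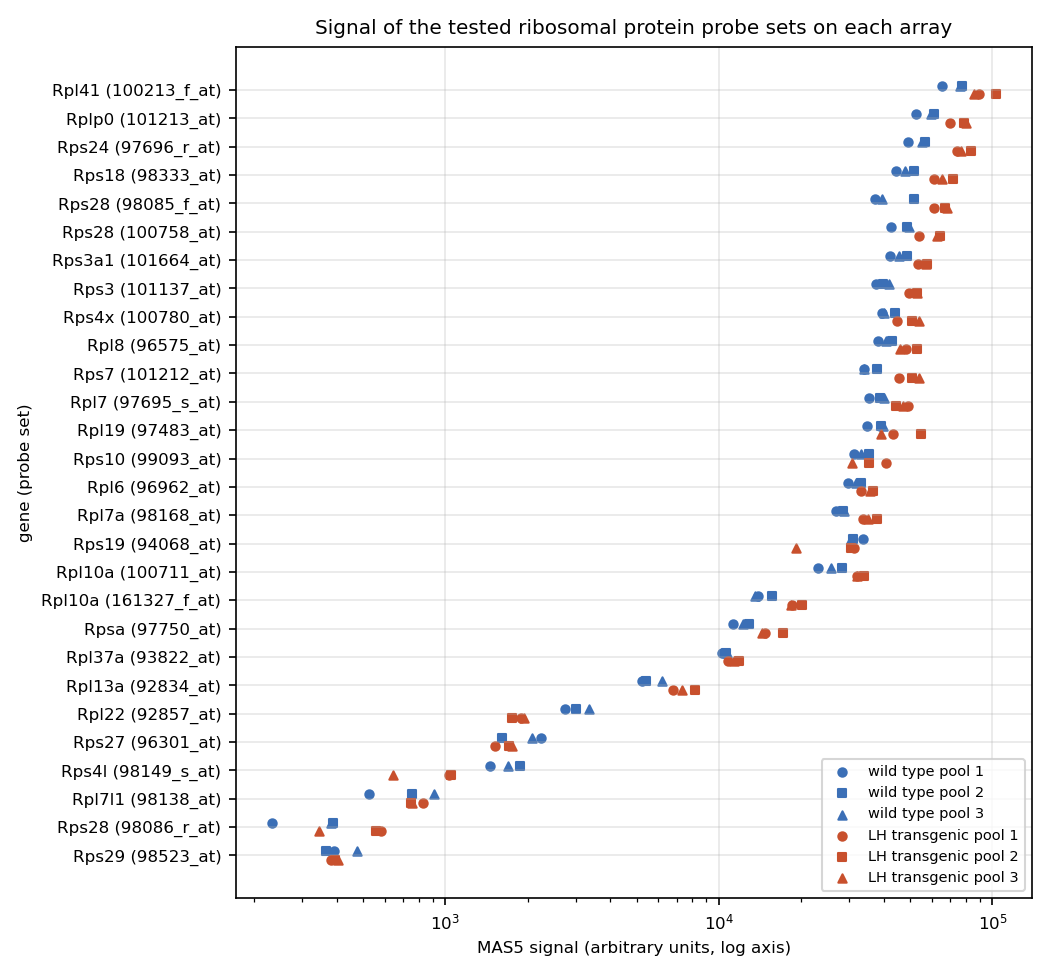
Signal of each of the 28 tested ribosomal protein probe sets (rows, brightest at the top) on the 3 wild type arrays (blue) and 3 LH transgenic arrays (red), on a log axis. In the 22 rows with a mean of at least 5000 the red points lie to the right of the blue ones in 18, while Rpl22 and Rps4l have them to the left; the order of rows is not an order of RNA amounts, since probe sets bind with different strength.

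**Figure D2:**
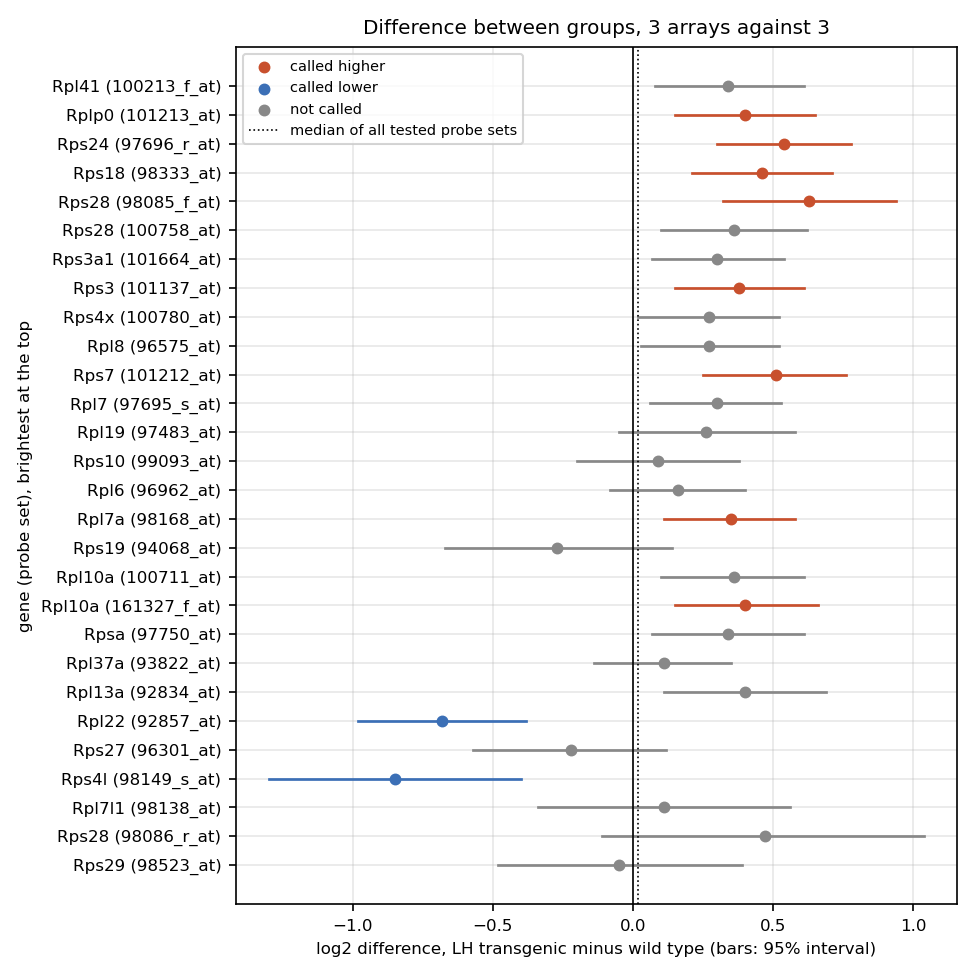
log2 difference (point) and its 95% interval from limma (bar) for the same 28 probe sets, coloured by call. The 8 increases lie between 0.35 and 0.63 on the deposited scale, and turned below 0 with the bacterial controls as the scale, while Rpl22 and Rps4l lie at -0.68 and -0.85.

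The signals of the 28 fell into a bright class and a dim class. A mean of at least 5000 was reached by 22 probe sets of 20 genes, 11 per subunit, and all 8 increases were among them. In 18 of these 22 every LH transgenic array exceeded every wild type array, against 20.6% of all tested probe sets. Among probe sets that name no ribosomal protein gene it held for 330 of 1112 with means of at least 5000. Of these it held for 39 of 107 from 20000 to 45000 and 23 of 30 at 45000 and above. LH transgenic over wild type means had a ratio of 1.27 at the median of the 22, and the ratios ran from 0.85 to 1.54. The changes were thus small, with a median within-group SD of 0.11 on the log2 scale for these probe sets against 0.203 for all tested. The 11 bright 40S probe sets had a median difference of 0.36 with 5 called higher, and the 11 bright 60S probe sets had 0.34 with 3 called higher.

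Among 40S proteins, Rps28, which sits near the exit of the mRNA channel, had the largest increase. Its probe set 98085_f_at read 37170.5, 51512.9 and 39321.0 on wild type arrays 1 to 3 and 61284.4, 67178.0 and 68086.5 on LH transgenic arrays 1 to 3. Every LH transgenic array lay above the highest wild type array, and wild type array 2 stood above the other two. The difference was 0.63 (SE 0.14, limma adjusted p = 0.0111). A second bright probe set of Rps28, 100758_at, had 46828 ± 3777 and 60336 ± 5580 (0.36), and its limma adjusted p of 0.0521 missed the threshold. The third, 98086_r_at, had a mean signal of 413.6 and a difference of 0.47 with groups that overlapped.

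Rps24, a protein that takes part in maturation of the 18S ribosomal RNA and is mutated in some cases of Diamond-Blackfan anaemia, read 49061.2, 56852.6 and 55383.2 in wild type and 74305.6, 83339.3 and 76605.8 in LH transgenic glands (97696_r_at). The groups were separated by more than either spanned, and the difference was 0.54 (SE 0.11, limma adjusted p = 0.00753). The identity of this probe set is uncertain. Its annotation cites the same GenBank entry as the probe set named for Rpl7 (97695_s_at), whose difference was 0.30 and not called. The other Rps24 probe set, 93121_at, with its own entry, had a mean of 161.8 and was not tested.

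Rps7, another 40S protein needed for early processing of the ribosomal RNA, read 33933.3, 37733.8 and 33901.1 in wild type and 45401.1, 50728.9 and 54089.8 in LH transgenic glands, a difference of 0.51 (SE 0.11, limma adjusted p = 0.012). Rps18, a protein of the head of the small subunit, rose from 48021 ± 3709 to 66090 ± 5453 (0.46, limma adjusted p = 0.0176). Rps3, which lies at the entry of the mRNA channel, read 37597.1, 39949.1 and 41896.2 against 49537.7, 53040.4 and 52828.5 (0.38, limma adjusted p = 0.0263). The groups did not overlap for any of these 3 genes. All 5 called 40S probe sets turned below 0 with the bacterial controls as the scale, at -0.06 for Rps28, -0.15 for Rps24, -0.18 for Rps7, -0.23 for Rps18 and -0.31 for Rps3, where all tested probe sets had a median of -0.62.

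The other bright 40S probe sets were not called. Rps3a1 (0.30), Rps4x (0.27) and Rpsa (0.34), the last a ribosomal protein also described as a laminin receptor, had groups that did not overlap, with intervals of 0.07 to 0.54, 0.02 to 0.52 and 0.07 to 0.61. Rps10, a 40S protein that is ubiquitinated when ribosomes collide, read 31183.1, 35498.0 and 33039.2 against 40872.9, 35269.9 and 30564.3, and its groups overlapped (0.09, interval -0.20 to 0.38). Rps19, the gene most often mutated in Diamond-Blackfan anaemia, was the 1 bright probe set with a difference below 0. It read 33779.5, 30920.9 and 30352.0 in wild type and 31151.4, 30447.4 and 19205.8 in LH transgenic glands. LH transgenic array 3 stood apart and the first 2 lay within the wild type range. The difference was -0.27 (interval -0.67 to 0.14, limma adjusted p = 0.328).

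Among 60S proteins, Rplp0, the stalk protein P0 that anchors the site where elongation factors bind, read 52557.0, 61027.0 and 59863.7 in wild type and 70134.2, 78643.5 and 79893.9 in LH transgenic glands (0.40, SE 0.11, limma adjusted p = 0.0296). Rpl10a, a protein of the L1 stalk through which spent tRNA leaves, had bright probe sets that gave close values. 161327_f_at rose from 14360 ± 1166 to 19007 ± 1000 (0.40, limma adjusted p = 0.0324), and 100711_at had 25584 ± 2592 and 32702 ± 1166 (0.36) and missed the threshold at an adjusted p of 0.0519. Rpl7a rose from 27956 ± 916 to 35581 ± 2243 (0.35, limma adjusted p = 0.0427). These 3 calls were on the deposited scale, and the differences were -0.29, -0.28 and -0.34 for Rplp0, Rpl10a (161327_f_at) and Rpl7a with the bacterial controls as the scale.

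Rpl41, whose product is a very short basic peptide, was the brightest of all members. It read 65358.3, 77645.1 and 76098.1 against 89678.3, 102932.4 and 85375.4 with no overlap, and was not called (0.34, interval 0.08 to 0.61, limma adjusted p = 0.0655). Rpl13a, known for its release from the ribosome in interferon-treated monocytes, had the largest difference of the 60S probe sets not called (0.40, interval 0.11 to 0.69). Rpl8 (0.27), Rpl7 (0.30) and Rpl37a (0.11) also had groups that did not overlap, whereas Rpl19 (0.26) and Rpl6 (0.16) had groups that overlapped. Rpl37a varied least, at 10516 ± 239 and 11334 ± 520, with an interval of -0.14 to 0.35.

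Both decreases were in the dim class. Rpl22, an RNA-binding 60S protein that mice lacking it can largely replace by a paralogue, read 2725.3, 3010.8 and 3351.9 in wild type and 1892.2, 1747.4 and 1939.1 in LH transgenic glands (92857_at). The highest LH transgenic array lay below the lowest wild type array, and the difference was -0.68 (SE 0.13, interval -0.98 to -0.38, limma adjusted p = 0.00709). A dimmer Rpl22 probe set, 92856_at, was left out by the filter at a mean of 330.4 and went the other way, from 268.4 ± 58.0 to 392.3 ± 15.4, so that the probe sets of Rpl22 disagreed and only the brighter was tested. Rps4l, a gene copy that resembles Rps4x, read 1453.7, 1868.7 and 1699.9 against 1034.1, 1049.5 and 641.1 (98149_s_at), with no overlap and a difference of -0.85 (SE 0.20, interval -1.30 to -0.40, limma adjusted p = 0.0149). Its second probe set, 98148_at, had a mean of 234.3, was not tested and differed by -0.11. Among all tested probe sets 19.8% had every LH transgenic array below every wild type array.

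Both decreases kept their sign under every scaling tried. Rpl22 had -0.66 after quantile normalization, -0.66 after cyclic loess and -1.34 with the bacterial controls, and Rps4l had -0.84, -0.85 and -1.49. The Rpl22 call was lost with the skeletal muscle marker level as a covariate (-0.63, limma adjusted p = 0.064). The Rps4l call was lost without wild type array 2 (-0.77, adjusted p = 0.0525) or 3 (-0.84, adjusted p = 0.0557), and its difference was -0.64 without LH transgenic array 3 and -1.28 with the muscle covariate.

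The remaining 4 tested dim probe sets were not called. Rps27, a zinc finger protein of the 40S, had 1968 ± 324 and 1660 ± 122 (-0.22), Rpl7l1, a relative of Rpl7, 730.9 ± 194.0 and 778.3 ± 42.6 (0.11), and Rps29 410.5 ± 58.2 and 393.3 ± 11.5 (-0.05). The fourth was 98086_r_at of Rps28. Just inside the filter lay 98086_r_at at 413.6 and Rps29 at 401.9, and just outside it Rpl22 (92856_at) at 330.4 and Rps13 at 305.8. The 21 probe sets left out had means between 30.3 and 330.4. They were the only ones for 10 genes, among them Rps13, Rps14, Rps15, Rps20, Rpl32, Rpl35a, Rpl38 and Rpl39, whose proteins are standard parts of the cytosolic ribosome. A gene's probe sets could differ widely, as for Rps4x, whose 5 probe sets had means from 30.3 to 45543.8. A dim probe set of these genes is therefore no measure of a low mRNA.

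Saturation was looked for in the signals themselves. No pile-up stood at the top of any array: 1 or 2 probe sets per array lay within 5% of the highest signal, and the highest was 1.24 to 1.38 times the tenth. The median of the members' differences was 0.38 in the 9 probe sets with means of at least 45000, 0.27 in the 9 from 20000 to 45000 and 0.37 in the 4 bright ones below 20000. The ribosomal protein signals themselves ran up to 102932.4, and the array maxima from 65904.4 to 81837.2 in wild type and from 95870.1 to 118248.1 in LH transgenic glands. All these signals are 1 number per probe set, taken after each array was scaled. They therefore cannot show whether a common ceiling was reached. The brightness of single probe cells, where a scanner ceiling would show, was not analysed here, so whether bright cells were clipped was not tested.

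**Figure D3:**
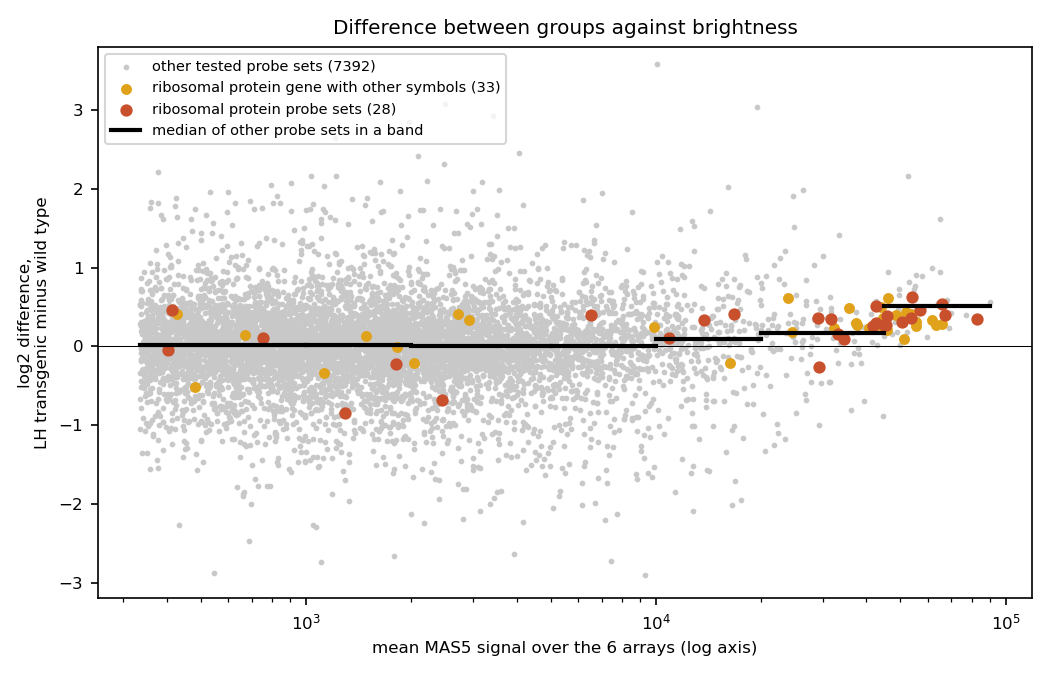
log2 difference against mean signal (log axis) for the 28 ribosomal protein probe sets (red), the 33 tested ones annotated to a ribosomal protein gene and other symbols (orange) and all other tested probe sets (grey), with the median of the grey ones per brightness band (black). The black line leaves 0 at the bright end, reaching 0.51 at 45000 and above, and most red points lie along that end.

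The difference between groups grew with brightness for other genes too. Probe sets that name no ribosomal protein gene had median differences between 0.00 and 0.02 in every band below 10000, 0.09 from 10000 to 20000, 0.17 from 20000 to 45000 (107 probe sets) and 0.51 at 45000 and above (30 probe sets, 19 called higher). In that top band 6 of the 30 were milk genes, and the other 24 had a median of 0.41 with 13 called higher. The 4 bright ribosomal protein probe sets below 20000 had a median of 0.37, against 0.01 for others from 5000 to 10000 and 0.09 from 10000 to 20000. From 20000 to 45000 the medians were 0.27 against 0.17, and at 45000 and above 0.38 against 0.51, with the ribosomal protein genes below the others. These gaps were not tested.

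Rank on an array is unchanged when all its signals are scaled by 1 factor, whereas cyclic loess can change it. It also depends on the signals of the other probe sets. The 22 bright probe sets had a median rank of 66.5, 73.5 and 54.5 on wild type arrays 1 to 3 and 61.5, 60.5 and 66.5 on LH transgenic arrays 1 to 3, counted from the brightest of 12488, so the groups overlapped. Rplp0 ranked 8, 10 and 10 in wild type and lower, at 16, 18 and 12, in LH transgenic glands although its signal rose on the deposited scale. Rps7 went from ranks of 77, 79 and 82 to 61, 61 and 48, and Rps28 (98085_f_at) from 60, 32 and 55 to 26, 28 and 20. Rps24 had 16, 19 and 13 against 11, 11 and 14. Rpl22 went from 2239, 2012 and 1790 to 3085, 3268 and 3038, and Rps4l from 3812, 3148 and 3385 to 4689, 4544 and 5998, with no overlap for either.

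Quantile normalization, which gives every array the same distribution, took the median of the 28 from 0.32 to 0.01. None of the 8 increases was called under it, while Rpl13a, not called as deposited, was called higher (0.42, limma adjusted p = 0.041) and both decreases were called. Under it 98085_f_at of Rps28 had 0.31 (adjusted p = 0.0653), Rps7 had 0.25 (adjusted p = 0.0697), Rps24 had 0.09, Rps18 had 0.03, and Rplp0 and Rpl41 went to -0.12 and -0.11. Cyclic loess gave a median of 0.11 and kept the calls of Rps28 (0.42), Rps24 (0.31) and Rps7 (0.32). Of all 7453 tested probe sets 763 were called higher after quantile normalization and 737 after cyclic loess, against 781 as deposited. Scaling by the bacterial controls moved the median of all tested probe sets from 0.02 to -0.62. The 28 had -0.37, which is 0.25 above all. Of the 28, 0 were called higher and 7 lower, beside 140 higher and 3859 lower of all 7453. Relative to that shift Rps28 (98085_f_at) lay 0.56 above the median of all, Rps24 0.47 and Rps7 0.44, while Rpl22 lay 0.72 and Rps4l 0.87 below it.

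**Figure D4:**
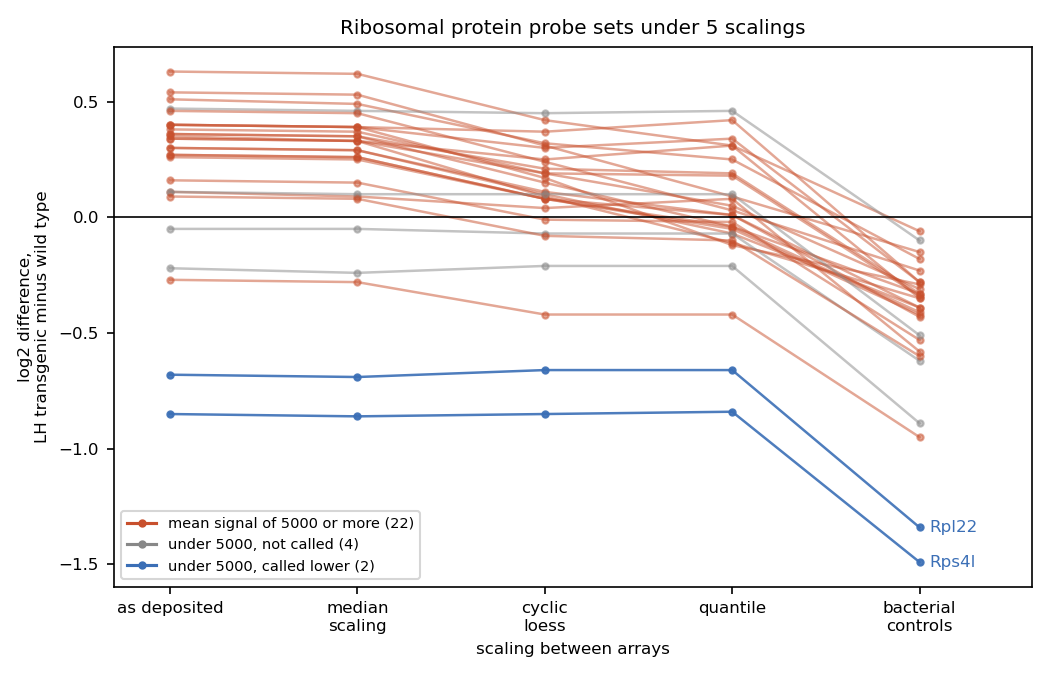
log2 difference of each of the 28 probe sets (1 line each) as deposited and after 4 other scalings, with lines coloured by brightness and call. The bright probe sets spread around 0 after quantile normalization and all lie below 0 with the bacterial controls, while Rpl22 and Rps4l stay below -0.6 throughout.

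The bright probe sets moved together from array to array within a group. Of the 3 wild type arrays, array 1 gave the lowest signal in 19 of the 22, and array 2 the highest in 14. Of the LH transgenic arrays, array 1 gave the lowest in 13 and array 2 the highest in 15. The median deviation of the 22 from the midpoint of the groups was -0.26, -0.08 and -0.14 in wild type and 0.11, 0.26 and 0.16 in LH transgenic glands. The 30 other probe sets at 45000 and above followed the same order, with -0.34, -0.10 and -0.25 and 0.13, 0.39 and 0.23. Members of this family that share an array are therefore not independent measurements. Several calls were lost when 1 array was left out, which also leaves 1 group with fewer arrays and the test with less power. The number of members called higher was 3 without wild type array 1 and 2 without wild type array 3. It was 3 without LH transgenic array 2 and 5 without LH transgenic array 3. The median lay between 0.26 and 0.35 over all 6 arrays left out in turn. Shares of all tested probe sets called in these fits are not given here. The Rps7 call was lost without wild type array 3 (0.48, limma adjusted p = 0.05). Over 18 alternative settings, the calls of Rps24, Rps28 (98085_f_at) and Rps7 were lost in 3 each. Those of Rps18, Rplp0, Rps3 and Rpl7a were lost in 8, 11, 13 and 13, and that of Rpl10a (161327_f_at) in 11 of 17.

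Most ribosomal protein genes have many pseudogenes, and 39 further probe sets were annotated to a ribosomal protein gene together with other symbols, so that they fall outside the rule and no gene is named from them. Of these, 33 were tested, with 7 called higher, none lower and a median of 0.27, beside 10.5% higher and 10.8% lower of all tested probe sets. The 24 with a mean of at least 5000 had a median of 0.28 on the deposited scale, 0.02 after quantile normalization and -0.41 with the bacterial controls, and 0.34, 0.02 and -0.35 were the medians of the 22 bright members. The rule's limit to single annotations thus gave much the same medians. Among the bright members themselves, the 17 with ordinary (_at) designs had a median of 0.34 with 5 called higher. The 5 with _f_at, _s_at or _r_at designs, whose probes can bind more than 1 transcript or were chosen under relaxed rules, had 0.40 with 3 called higher. Fau, which encodes the 40S protein Rps30 as a fusion, read 102.6 to 206.1 on the 6 arrays and was not tested.

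Other genes of translation were counted from lists of their own, with the brightest probe set standing for each gene. Of 10 elongation, termination and related factors 3 rose and none fell (median 0.28), against 1 and 0 after quantile normalization and 0 and 4 on the bacterial scale. Over all 7453 tested probe sets 10.5% were called higher and 10.8% lower as deposited. On the bacterial scale 140 of them were called higher and 3859 lower. Tpt1 read 53002.0, 64094.8 and 61532.5 against 78926.7, 81999.2 and 78590.1 (0.43, limma adjusted p = 0.0208), but had -0.09 after quantile normalization and -0.26 with the bacterial controls. Gspt1, a release factor (0.46), and Pabpc1, the poly(A)-binding protein (0.34), rose as well on the deposited scale, and turned to -0.22 and -0.35 on the bacterial scale. Eef1a1, which delivers aminoacyl-tRNA, had 0.39 and missed the threshold (limma adjusted p = 0.0522), and Eef2 had 0.09. Of the 10 genes 7 had differences above 0 on the deposited scale.

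Of 26 initiation factor genes 5 rose and none fell (median 0.21), beside 10.5% higher and 10.8% lower of all tested probe sets. Eif2s2, a subunit of the factor that brings the initiator tRNA, read 234.0, 388.0 and 379.8 against 669.3, 546.0 and 919.0 (0.93, limma adjusted p = 0.024). The helicase gene Eif4a1 (0.73) and Eif5b (0.56), which joins the subunits, rose too. Of 19 genes of tRNA synthetases and their scaffold 6 rose and none fell (median 0.37). Nars, for asparagine, read 1914.3, 1878.3 and 1900.6 against 3335.8, 3453.1 and 3536.6, a difference of 0.83 (SE 0.12, limma adjusted p = 0.00164), Rars, for arginine, had 0.78 and Vars, for valine, 0.56. After quantile normalization the same numbers, 5 and 6, were called, with medians of 0.19 and 0.40. On the bacterial scale the medians of both lists lay below 0 (-0.45 and -0.31), and none was called higher. All 7453 tested probe sets had a median of -0.62 there, with 140 called higher. Nars, Rars, Eif2s2 and Eif4a1 kept differences above 0 there, at 0.16, 0.11, 0.35 and 0.06, while Eif5b and Vars had -0.11 each.

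Of 43 ribosome assembly genes 6 rose and none fell, beside 10.5% and 10.8% of all tested probe sets, and their median was 0.07. Nhp2, a protein of the particles that modify ribosomal RNA, read 5251.0, 5671.9 and 5255.9 against 9008.0, 8207.7 and 8407.2 (0.66, limma adjusted p = 0.00414). Brix1 (0.66) and Noc4l (0.58), which assemble the 60S and 40S, rose too, and these 3 had -0.03, 0.00 and -0.08 on the bacterial scale. There 0 of the 43 were called higher and 17 lower (median -0.56). Of all 7453 tested probe sets 140 were called higher and 3859 lower on that scale (median -0.62). Of 57 mitochondrial ribosomal protein genes 2 rose, Mrps12 (0.56) and Mrpl21 (0.49), and 1 fell, Mrps31 (-0.60), with a median of 0.04. Both increases lay below 0 on the bacterial scale (-0.12 and -0.17), where 0 of the 57 were called higher and 33 lower (median -0.63).

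Of 13 genes of the mTOR, S6 kinase and MYC axis, which governs ribosomal protein synthesis, 2 fell and none rose, where 10.8% of all tested probe sets were called lower. Akt2, the insulin-responsive kinase of fat and muscle, fell from 5803 ± 231 to 2203 ± 549 (-1.39, limma adjusted p = 0.00102). Eif4ebp1, the mTOR target that holds back cap-dependent initiation, read 3564.5, 3772.1 and 3376.3 against 1853.2, 2412.1 and 1767.1 (-0.82, limma adjusted p = 0.00498). Both were lower under every scaling tried. On the bacterial scale 10 of the 13 were called lower (median -0.68), beside 3859 of all 7453 tested probe sets (median -0.62).

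**Figure D5:**
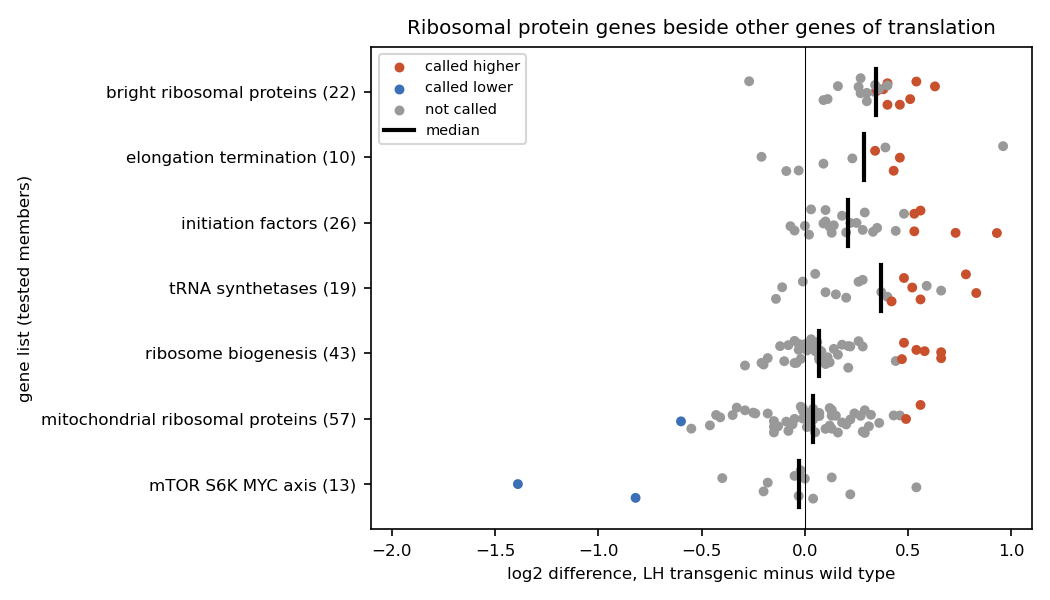
log2 difference of single genes (points; for ribosomal proteins, bright probe sets) by list, coloured by call, with the list median (bar), on the deposited scale. The medians run from 0.37 for tRNA synthetases and 0.34 for bright ribosomal proteins to 0.04 for mitochondrial ribosomal proteins and -0.03 for the mTOR, S6 kinase and MYC list. With the bacterial controls as the scale every list median lies below 0, as does that of all tested probe sets (-0.62).

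Markers of cell types moved in the same comparison. Summed signals are over all listed genes on the array, tested or not, which are 11 for muscle and 9 for B and T cells. The milk genes rose in 9 of 10, and their summed signal was 217643 to 382477 in wild type and 573546 to 709728 in LH transgenic glands. Fat cell markers fell in 7 of 8 (summed signal 121558 to 142993 against 54238 to 60535) and endothelial markers in 6 of 8 (30020 to 34262 against 13260 to 16427). Skeletal muscle markers fell in 4 of 10, with 88895 to 102215 in wild type and 19117, 22460 and 81816 on LH transgenic arrays 1 to 3. Macrophage markers rose in 4 of 9 (33348 to 52726 against 63530 to 76558). Tested luminal markers rose in 3 of 6 and basal markers in 1 of 4, 0 of 2 erythroid markers were called, and of B and T cell markers 1 of 4 rose, with summed signals of 5263 to 7604 and 4593 to 6509. These counts are on the deposited scale, where 10.5% of all tested probe sets were called higher and 10.8% lower. On the bacterial scale 6 of 10 milk genes were called higher, all 8 fat cell, all 10 muscle and 7 of 8 endothelial markers lower, and of the macrophage markers 0 higher and 1 lower (median -0.08). Of luminal markers 1 was called higher and 1 lower there, and 2 each of the basal, erythroid and B and T cell markers lower. Of all 7453 tested probe sets 140 were called higher and 3859 lower on that scale. With the muscle marker level as a covariate, 1 ribosomal protein probe set was called higher and the median was 0.28. For the other marker lists, their part in the ribosomal protein result was not tested.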

How the data were processed

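The authors deposited linear signal intensities, 1 for each probe set of an array. The submitters' processing notes name MAS5. For its version and the genome build, the status is: not given in the sources used here. Of 12422 probe sets that are not controls, 10833 had 1 gene in the platform annotation, 396 several and 1193 none. All 49 member gene identifiers were found in the GRCm38.p6 gene table, with 0 symbols changed. From the intensities, log2(signal + 80) was computed, 80 being the 20th percentile, and probe sets with a mean of at least 336 (the 40th percentile) were tested with limma (lmFit, eBayes with a trend, two-sided, no covariates, Benjamini-Hochberg over 7453). The group came from the source name, and replicate numbers are names only. Pools came from different mice, and having 3 arrays a group limits the precision.

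Named genes were every called member, the 5 brightest and 3 dimmest tested members, Fau, and up to 3 called genes per direction from each list. Eef1a1, Eef2 and the remaining members named were picked with their values in view. The members and lists were chosen with earlier results of these data known. The 5000, 20000 and 45000 limits were set after the signals were seen. The limma step was checked on simulated data with known changes. Promoter sequences are from RefSeq (GRCm38.p6). Tables were made in Python 3.11.15 (numpy 2.4.6, pandas 2.3.3), figures with matplotlib 3.10.9, and fits in R 4.3.3 with limma 3.58.1 and statmod 1.5.0.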

Additional observations from a re-analysis of the deposited data

How the results depend on the processing

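The count of ribosomal protein probe sets called higher depended on the scaling and on the set of arrays used, while the 2 decreases did so less. As deposited 8 were higher, 2 lower and the median was 0.32. Scaled to the bacterial controls, 0 were higher, 7 lower and the median was -0.37. All 7453 tested probe sets then had 140 higher, 3859 lower and a median of -0.62. Quantile normalization gave 1 higher and a median of 0.01, and cyclic loess 3 and 0.11. Of all 7453 tested probe sets 763 and 737 were higher under these, against 781 as deposited. Without a filter on dim probe sets 3 were higher, beside 557 of the same 7453 probe sets. The median was then 0.27 over all 49 members and 0.32 over the same 28. Median scaling and eBayes without a trend gave 4 each, beside 733 and 713 of all 7453, and the skeletal muscle covariate gave 1. Leaving out each array in turn gave 2 to 7 higher, 1 to 2 lower and medians of 0.26 to 0.35. For these fits and the muscle covariate, counts over all tested probe sets are not given here. The other pseudocounts, the stricter filter, robust eBayes and 1 probe set per gene gave 7 to 11 higher and 2 lower. As deposited 23 of the 28 differences lay above 0, and with the bacterial controls 0 did. Among those that turned below 0 were Rpl41 -0.35, Rps3 -0.31, Rps7 -0.18, Rplp0 -0.29, Rpl10a -0.28 and Rps24 -0.15. Others were Rps28 -0.06 and -0.10, Rpl7l1 -0.51, Rpl7a -0.34 and Rps18 -0.23. With quantile normalization 15 of the 28 lay above 0, and Rpl41 (-0.11) and Rplp0 (-0.12) were among those that turned below it. Rpl7l1 had -0.09 without wild type array 1 and Rps29 0.05 without wild type array 3. The cause was not tested. No paired analysis was possible because the labels give the arrays of the groups no shared numbers.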
